A study of Mus musculus with 6 samples.

Results

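The genes described here are those of talin, the integrins, the kindlins and the focal adhesion, 38 of the 34745 genes in the expression table, chosen by name because the peptide PDTLN1 is named for talin 1. All 38 names were found, each in 1 row. The 6 libraries came from P19 cells given the peptide PDTLN1 (3 libraries) and from untreated P19 cells, called control (3 libraries). P19 is an established mouse embryonal carcinoma line, so both groups are 1 line in culture medium with serum, and neither the peptide's dose nor the time of exposure is in the labels. RNA was sequenced from whole cultures, and in bulk RNA fewer cells with a transcript and less transcript per cell cannot be told apart.

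Integrins are receptors of 1 alpha and 1 beta chain that hold cells to the extracellular matrix. Talin binds the cytoplasmic tail of the beta chain and, together with kindlin, switches the receptor to its high-affinity form. Stretched talin then recruits vinculin, and around this core the complex of integrin-linked kinase, PINCH and parvin, the kinases Fak and Src, scaffolds such as paxillin, and actin-binding proteins form the focal adhesion. Pluripotent cells depend on such contacts, mainly with laminin and fibronectin, for survival and spreading.

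The libraries held between 10381307 and 11663081 counts. Of 8 pluripotency markers 7 were expressed well enough to test, and the 8 summed to 3140 to 3280 CPM (counts scaled to library size by edgeR's TMM method) in PDTLN1 libraries and 3280 to 3420 CPM in control libraries. Of the 7 tested, 2 had a log2 fold change above 0. Utf1 had the smallest p, with a log2 fold change of -0.38 (edgeR unadjusted p 0.00248, adjusted 0.989). Utf1, Pou5f1 and Dnmt3b were lower in PDTLN1 libraries without overlap, as were 4.98% of all tested genes. The part of this in the results below was not tested. The labels' extraction protocol mentions retinas, and Crx and Arr3, genes of photoreceptors, were at 0 counts in every PDTLN1 and control library. Among 10 genes of blood cells and platelets, whose integrins differ from those of other cells, Gp9 was at 0 and Ptprc had 10 counts over the 6 libraries. Cd68 had 506 counts and Itga2b 198, and both had counts in every library. The 10 genes summed to 8.95 to 15.1 CPM in PDTLN1 libraries and 11.1 to 13.6 CPM in control libraries. The 6 fibroblast genes summed to 57.1 to 67.3 CPM in PDTLN1 libraries, below the 75.4 to 76.8 CPM of control libraries, and the part of this in the results below was not tested. The 5 endoderm genes summed to 4.43 to 4.84 CPM in PDTLN1 libraries and 3.58 to 5.34 CPM in control libraries. Libraries also differed along a first principal component with 35.0% of the variance, on which PDTLN1 2, PDTLN1 3 and control 1 lay on one side and PDTLN1 1, control 2 and control 3 on the other. No label says that the 3 libraries of a group are separate cultures, so p-values measure the spread between libraries, which may be technical.

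P19 cells expressed most of the listed adhesion genes, with talin 1, kindlin 2 and beta 1 integrin far above most of their listed relatives. Levels between genes are compared in FPKM, the authors' counts scaled by gene length and library size, and 16 of the 38 genes averaged over 10 FPKM. Vcl, which encodes vinculin, was the highest at 121 ± 4.08 FPKM in PDTLN1 libraries and 116 ± 2.05 FPKM in control libraries (SD, n = 3 each). Bcar1, the docking protein p130Cas, averaged 75.5 FPKM in PDTLN1 libraries and 71.0 FPKM in control libraries, and Actn4, an actin cross-linking alpha-actinin, 71.0 FPKM in PDTLN1 libraries and 71.6 FPKM in control libraries. Itgb1 averaged 64.4 FPKM in PDTLN1 libraries and 67.3 FPKM in control libraries, and the actin cross-linker gene Flna 64.8 FPKM in PDTLN1 libraries and 63.1 FPKM in control libraries. Bcar1, Actn4, Itgb1 and Flna thus lay between 63.1 and 75.5 FPKM, and their order depends on the gene length used. The length that the FPKM values imply was 0.322 to 2.88 times the exonic length in the GENCODE annotation. With annotated lengths Flna came first, followed by Itgb1, Actn4, Vcl and Bcar1, so that the same 5 genes led both orders.

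**Figure D1:**
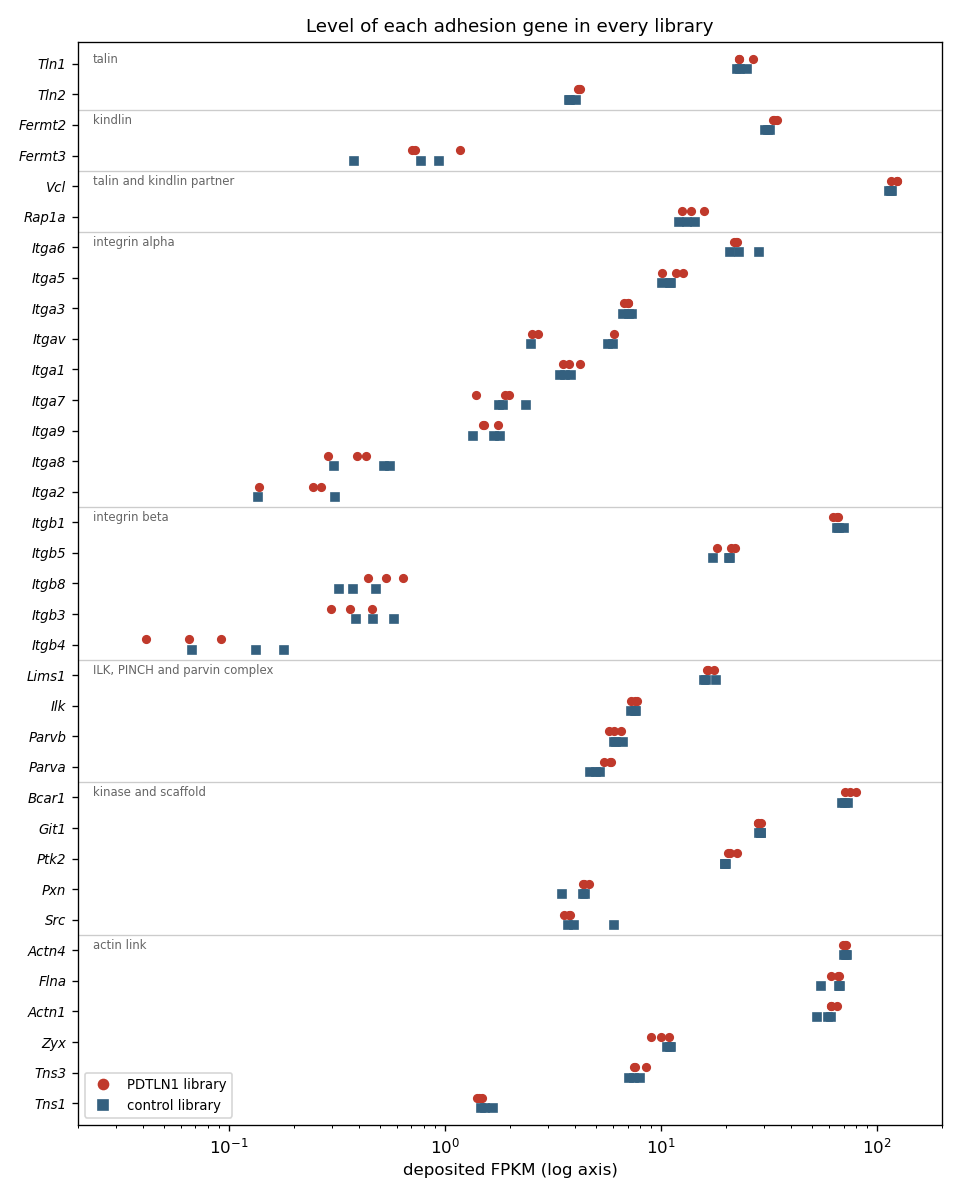
Deposited FPKM (log axis) of the 35 adhesion genes with at least 10 counts in all, by role; red circles are the 3 PDTLN1 libraries and blue squares the 3 control libraries. Vcl is highest, Itgb1 stands above the other beta chains, Tln1 far above Tln2, and Itgav falls into separate levels within both groups; Itga2 in control library 3 is at 0 and not drawn.

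Some members were not detected or nearly so. Apbb1ip, which encodes RIAM, the adaptor that brings talin to the small GTPase Rap1 in blood cells, and Lims2, the gene of PINCH-2, had 0 counts throughout. At this depth that limits their level to 0.256 to 0.290 CPM, depending on the library (3 counts, counting error only). Fermt1, the kindlin of epithelia, had 1 count in all. Itgb4, the beta chain of hemidesmosomes, had 4, 7 and 10 counts in PDTLN1 libraries 1, 2 and 3 and 13, 18 and 7 counts in control libraries 1, 2 and 3. These 4 genes did not pass edgeR's expression filter and were not tested. The other 34 were tested.

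No member passed the test of PDTLN1 against control. By edgeR's quasi-likelihood test 0 of 34 tested members had an adjusted p under 0.05, where 0.0217% of all 13836 tested genes did, and 1 member, Parva, had an unadjusted p under 0.05 (2.94% of members, 3.99% of all genes). DESeq2 also called 0 of the 34, and 0.0723% of all genes. With both libraries numbered 1 left out, edgeR again called 0 members, and 0.652% of all genes. Every member's adjusted p lay between 0.989 and 0.997. Log2 fold changes ran from -0.37 for Itgb3 to 0.55 for Itga2, with 19 above 0 (55.9%, against 49.7% of all tested genes) and 15 below, and their median was 0.04 against 0.00 for all tested genes. For 26 of the 34 members the 95% interval of the log2 fold change lay within 0.5 units of 0, and for 31 within 1 unit.

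**Figure D2:**
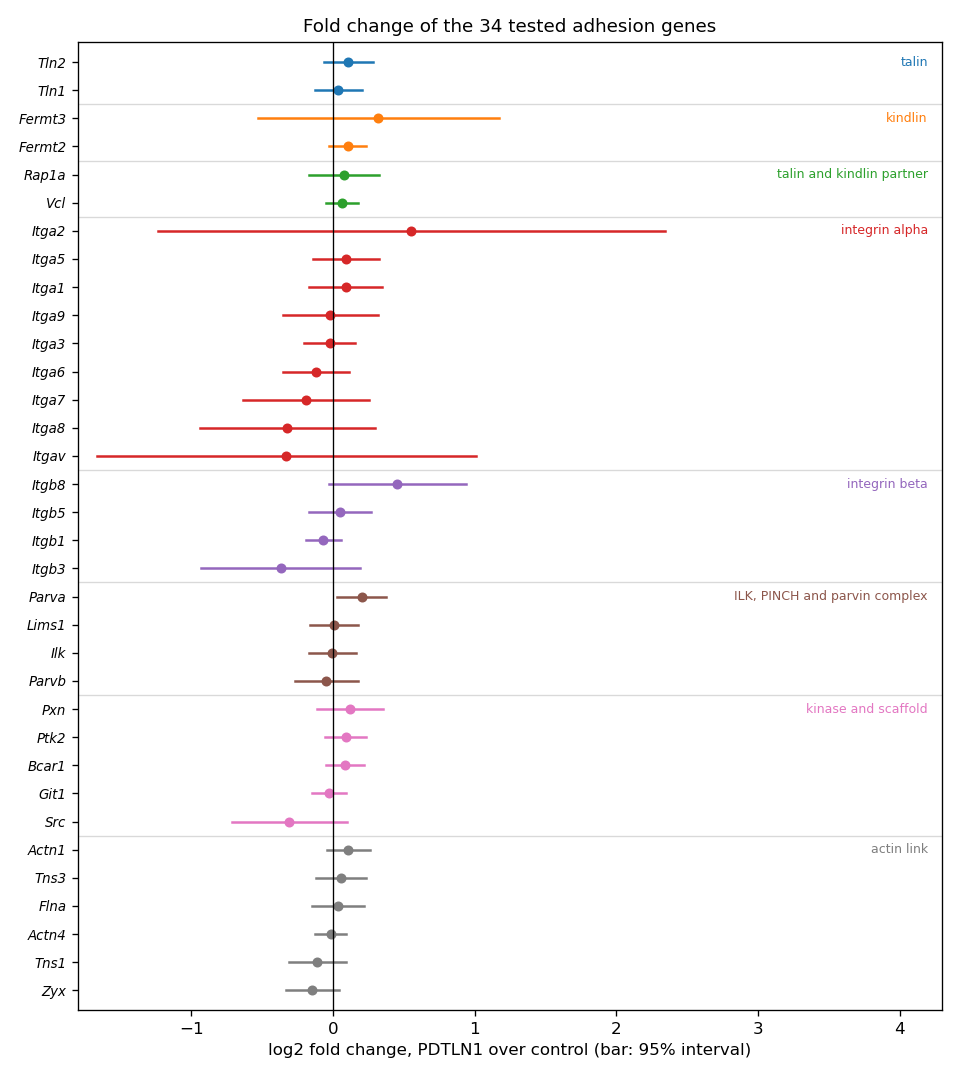
Log2 fold change of PDTLN1 over control (points) with its 95% interval from edgeR (bars) for the 34 tested genes, coloured by role. Parva is the gene whose interval, 0.03 to 0.38, does not hold 0 before adjustment, and the widest intervals belong to Itga2 and Itgav.

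Of the talins, Tln1 carried most of the transcript. In PDTLN1 libraries 1, 2 and 3 Tln1 (ENSMUSG00000028465, chromosome 4 from 43531519 to 43562691 on the minus strand, build GRCm38) was at 262, 305 and 262 CPM, and in control libraries 1, 2 and 3 at 258, 265 and 284 CPM. The ranges overlapped, with PDTLN1 library 2 the highest of the 6. The log2 fold change was 0.04 with an SE of 0.07 and a 95% interval of -0.13 to 0.20 (edgeR adjusted p 0.989), and without PDTLN1 library 2 it was -0.04. Tln2, the second talin of heart, brain and many other tissues, was at 53.1, 52.1 and 52.0 CPM in PDTLN1 libraries and 47.9, 50.9 and 47.1 CPM in control libraries. All PDTLN1 values of Tln2 lay above all control values, by a log2 fold change of 0.11 with an interval of -0.07 to 0.28 that did not pass (edgeR adjusted p 0.989). By FPKM Tln2 made up 14.7% ± 1.16 of both talins in PDTLN1 libraries and 14.1% ± 0.932 in control libraries (SD, n = 3 each). With annotated gene lengths the share was 9.24% in PDTLN1 libraries and 8.81% in control libraries. Exons of Tln1 share 360 bases with Creb3 on the other strand, and the sources used here do not say whether counting used strand.

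Kindlin 2 was the kindlin of these cells. Fermt2, its gene, was at 148, 143 and 141 CPM in PDTLN1 libraries and 137, 130 and 135 CPM in control libraries. The groups did not overlap, and the log2 fold change of 0.10 had an interval of -0.03 to 0.23 (edgeR adjusted p 0.989). Fermt3, the kindlin of blood cells, was expressed at a low level, at 1.84, 3.04 and 1.88 CPM in PDTLN1 libraries and 2.02, 2.44 and 0.986 CPM in control libraries. Of the partners of talin, Vcl was at 650, 646 and 607 CPM in PDTLN1 libraries and 607, 619 and 597 CPM in control libraries, overlapping at the lowest PDTLN1 value. Its log2 fold change was 0.06, with an interval of -0.05 to 0.18. Of the annotated exonic length of Vcl 25.5% overlaps Ap3m1 on the other strand. Rap1a, the small GTPase that activates integrins through talin, averaged 51.9 CPM in PDTLN1 libraries and 49.2 CPM in control libraries, with ranges that overlapped.

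Among the beta chains, Itgb1 and Itgb5 made up nearly all of the transcript. Itgb1, the partner of most alpha chains, was at 375, 368 and 351 CPM in PDTLN1 libraries and 369, 397 and 379 CPM in control libraries. The ranges overlapped, and the log2 fold change of -0.07 had an interval of -0.19 to 0.06. By FPKM Itgb1 was 75.1% ± 2.08 of the 5 listed beta chains in PDTLN1 libraries and 76.5% ± 1.74 in control libraries (SD, n = 3 each). Itgb5, which pairs with the alpha v chain as a vitronectin receptor, was at 84.5, 101 and 96.4 CPM in PDTLN1 libraries and 96.5, 95.6 and 80.7 CPM in control libraries, and its share was 23.8% in PDTLN1 libraries and 22.4% in control libraries. The 2 groups spanned nearly the same values.

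Further partners of alpha v, Itgb8 and Itgb3, were expressed at low levels, and their point estimates lay on opposite sides of 0. Itgb8, whose receptor activates latent TGF-beta, was at 6.0, 8.69 and 7.26 CPM in PDTLN1 libraries and 6.53, 4.41 and 5.11 CPM in control libraries. Control library 1 lay above PDTLN1 library 1, and the log2 fold change of 0.46 had an interval of -0.03 to 0.94. Itgb3, the beta chain of the platelet and endothelial receptors, was at 3.97, 3.13 and 2.56 CPM in PDTLN1 libraries and 3.36, 4.03 and 5.02 CPM in control libraries. Its log2 fold change was -0.37, with an interval of -0.93 to 0.19, and the ranges overlapped. Neither passed (edgeR adjusted p 0.989 for both), and the difference between the 2 genes was not tested.

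Of the alpha chains, Itga6, the laminin receptor chain, was the most abundant on both length scales. It was at 279, 270 and 273 CPM in PDTLN1 libraries and 259, 283 and 350 CPM in control libraries. Control library 3 stood apart, and without it the log2 fold change was 0.02 in place of -0.12. By FPKM Itga6 was 42.7% ± 3.02 of the 9 listed alpha chains in PDTLN1 libraries and 44.1% ± 5.25 in control libraries (SD, n = 3 each). Itga5, the fibronectin receptor chain, was at 51.5, 55.7 and 44.0 CPM in PDTLN1 libraries and 44.2, 48.5 and 48.8 CPM in control libraries. PDTLN1 libraries 1 and 2 lay above all controls and PDTLN1 library 3 below them, for a log2 fold change of 0.09 with an interval of -0.14 to 0.33. Itga3, another laminin receptor chain, was at 45.5, 47.6 and 47.4 CPM in PDTLN1 libraries and 49.8, 48.1 and 45.0 CPM in control libraries, a log2 fold change of -0.02.

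The remaining alpha chains were less abundant. Itga1, a collagen receptor chain, was at 21.2, 25.4 and 22.3 CPM in PDTLN1 libraries and 22.9, 21.5 and 20.3 CPM in control libraries. Itga9, which binds tenascin and other matrix proteins, was at 12.9, 14.9 and 12.6 CPM in PDTLN1 libraries and 11.4, 15.2 and 14.3 CPM in control libraries. Both genes overlapped between the groups, and their log2 fold changes were 0.09 and -0.02. Itga7, the laminin receptor chain of muscle, was at 7.65, 5.56 and 7.94 CPM in PDTLN1 libraries and 7.49, 7.13 and 9.50 CPM in control libraries. Itga8, a chain best known from the developing kidney, was at 2.81, 3.82 and 4.19 CPM in PDTLN1 libraries and 5.09, 3.00 and 5.47 CPM in control libraries. Their log2 fold changes of -0.19 and -0.32 did not pass, and the groups overlapped for both. Without 1 library the values were -0.29 to -0.05 for Itga7 and -0.54 to -0.16 for Itga8. Itga2, a collagen receptor chain, had 6, 13 and 12 counts in PDTLN1 libraries and 6, 14 and 0 counts in control libraries, so its log2 fold change of 0.55 rested on control library 3 and was -0.04 without it.

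**Figure D3:**
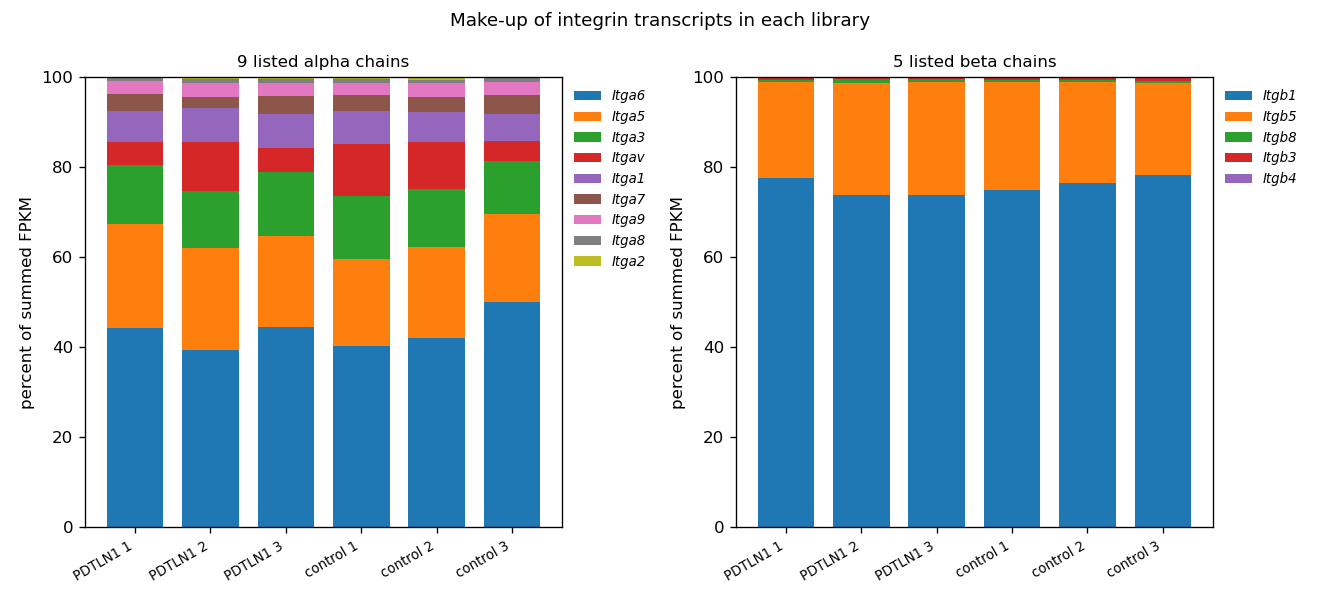
Percent of the summed FPKM of the 9 listed alpha chains (left) and the 5 listed beta chains (right) in each library, PDTLN1 libraries first. Itga6 and Itgb1 are the largest parts in all 6 libraries, and the Itgav part is 10.9%, 11.5% and 10.5% in PDTLN1 2, control 1 and control 2, against 4.40% to 5.40% in the other 3.

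Itgav, the alpha v chain of the vitronectin receptors, fell into separate high and low libraries within both groups. The gene (ENSMUSG00000027087, chromosome 2 from 83724397 to 83806916 on the plus strand, build GRCm38) was at 34.9, 84.0 and 37.2 CPM in PDTLN1 libraries 1, 2 and 3 and at 82.9, 79.0 and 34.5 CPM in control libraries 1, 2 and 3. Thus 3 libraries, PDTLN1 2, control 1 and control 2, lay at 79.0 to 84.0 CPM and the other 3 at 34.5 to 37.2 CPM, with the lowest of the high libraries 2.13 times the highest of the low ones. These levels rest on 361 to 967 counts per library. The log2 fold change between the groups was -0.33 with an SE of 0.52 and an interval of -1.66 to 1.01. Only Itgav among the 34 members, and 0.0289% of all tested genes, had these 3 libraries above the other 3 by more than 0.6 log2 units, a limit chosen after its values were seen. Of 9929 tested genes with a mean of at least 10 CPM, 66 had a wider spread within groups than Itgav. The grouping of libraries was not that of the first principal component, on which control 2 lay with PDTLN1 1 and control 3. Of the partner chains, Itgb5 was at 101, 96.5 and 95.6 CPM in the libraries with high Itgav and at 84.5, 96.4 and 80.7 CPM in PDTLN1 1, PDTLN1 3 and control 3, so that PDTLN1 3 lay among the libraries with high Itgav. Over the 6 libraries Itgb5 ranged 1.26-fold. Itga5, also a fibronectin-binding alpha chain, ranged 1.27-fold over the 6 libraries. Itgav shares 634 exonic bases with Gm13684 on the other strand, a gene with 0 counts in all libraries.

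**Figure D4:**
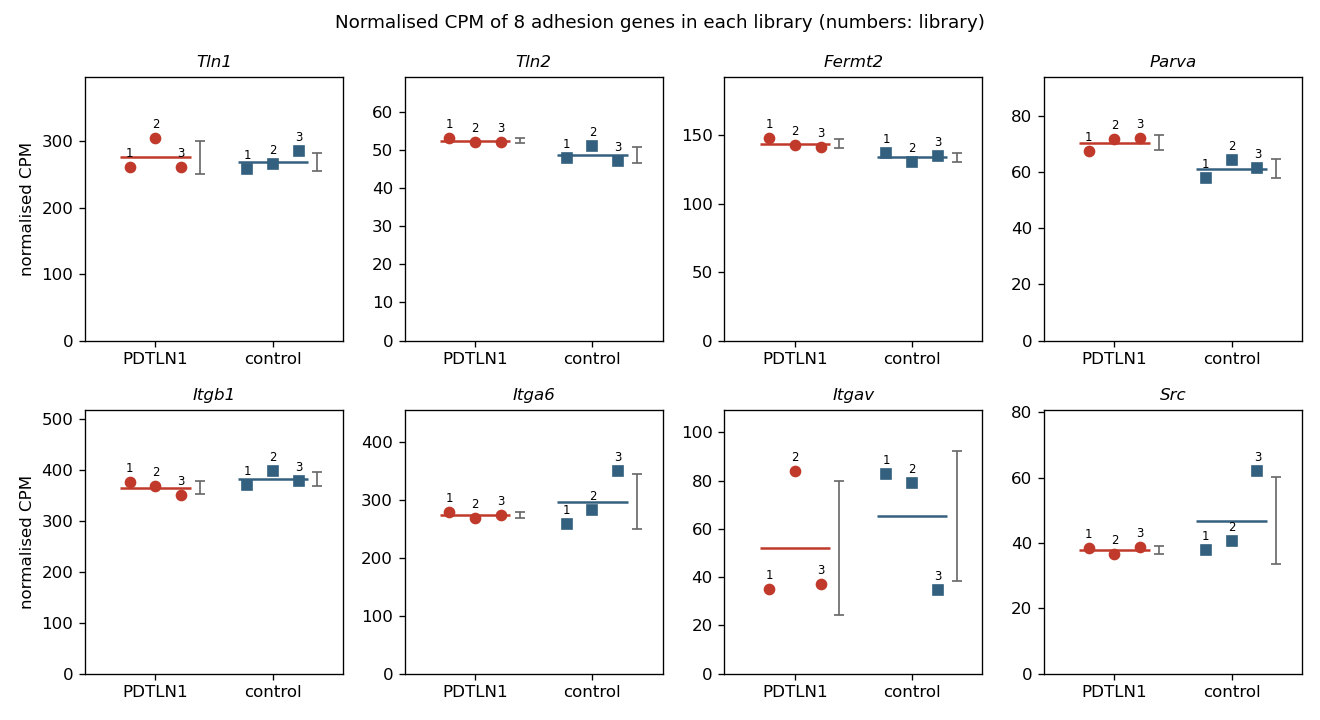
Normalised CPM (axes from 0) of 8 adhesion genes in each library, numbered 1 to 3; horizontal lines are group means and grey bars the SD (n = 3). Parva, Fermt2 and Tln2 do not overlap between the groups, Itgav splits into 2 levels inside each group, and control library 3 stands alone for Src and Itga6.

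In the complex of integrin-linked kinase, PINCH and parvin, which ties beta integrin tails to actin, Parva had the smallest p of all members. Parva, the gene of alpha-parvin, was at 67.5, 71.7 and 72.1 CPM in PDTLN1 libraries and 57.7, 64.3 and 61.6 CPM in control libraries. The groups did not overlap, and the log2 fold change was 0.20 with an SE of 0.08 and an interval of 0.03 to 0.38 (edgeR unadjusted p 0.0268, adjusted 0.989). The other members of the complex lay closer to 0. Ilk, the gene of integrin-linked kinase, averaged 59.4 CPM in PDTLN1 libraries and 59.7 CPM in control libraries. Lims1, the gene of PINCH-1, averaged 104 CPM in PDTLN1 libraries and 103 CPM in control libraries, and Parvb, the gene of beta-parvin, 29.3 CPM in PDTLN1 libraries and 30.2 CPM in control libraries. Exons of Taf10 on the other strand cover 76.7% of the annotated exonic length of Ilk, so the counts of Ilk are uncertain.

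The 4 members whose groups did not overlap, Parva, Fermt2, Ptk2 and Tln2, were all higher in PDTLN1 libraries. They make 11.8% of the 34 tested members, while 9.79% of all tested genes had no overlap in either direction, 4.81% with PDTLN1 higher and 4.98% with PDTLN1 lower. The share in either direction is close to that of all genes, and the share with PDTLN1 higher, the same 4 genes, is above it. Ptk2, the gene of focal adhesion kinase, was at 107, 104 and 114 CPM in PDTLN1 libraries and 102, 102 and 102 CPM in control libraries, a log2 fold change of 0.09 with an interval of -0.06 to 0.23.

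Among the kinases and scaffolds, Src was set apart by 1 library. Src, the tyrosine kinase that acts with focal adhesion kinase, was at 38.4, 36.5 and 38.6 CPM in PDTLN1 libraries and 37.9, 40.6 and 62.0 CPM in control libraries. Only control library 3 departed from the other 5, and the log2 fold change of -0.31 (interval -0.71 to 0.10) was -0.05 without it. Pxn, the paxillin gene, averaged 62.8 ± 2.15 CPM in PDTLN1 libraries and 57.7 ± 7.53 CPM in control libraries (SD, n = 3 each), where control library 1 was the low one at 49.0 CPM. Bcar1 averaged 240 CPM in PDTLN1 libraries and 226 CPM in control libraries. Git1, a scaffold and Arf GTPase-activating protein that binds paxillin, ranged 1.04-fold over the 6 libraries, the least of the tested members.

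The genes that link adhesions to actin kept within 1.25-fold over all 6 libraries. Flna was at 959 to 1057 CPM in PDTLN1 libraries and 873 to 1066 CPM in control libraries, with control library 1 lowest, and its log2 fold change of 0.04 was -0.05 without that library. Actn1, the second alpha-actinin listed, averaged 255 CPM in PDTLN1 libraries and 237 CPM in control libraries, again with control library 1 lowest at 216 CPM. Actn4 averaged 479 CPM in PDTLN1 libraries and 484 CPM in control libraries. Zyx, the zyxin gene of tension-bearing adhesions, averaged 89.0 ± 8.71 CPM in PDTLN1 libraries and 98.4 ± 2.22 CPM in control libraries (SD, n = 3 each). Its log2 fold change was -0.14, with an interval of -0.33 to 0.04. Tns1 and Tns3, tensins that bind beta integrin tails and actin, had log2 fold changes of -0.11 and 0.06.

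**Figure D5:**
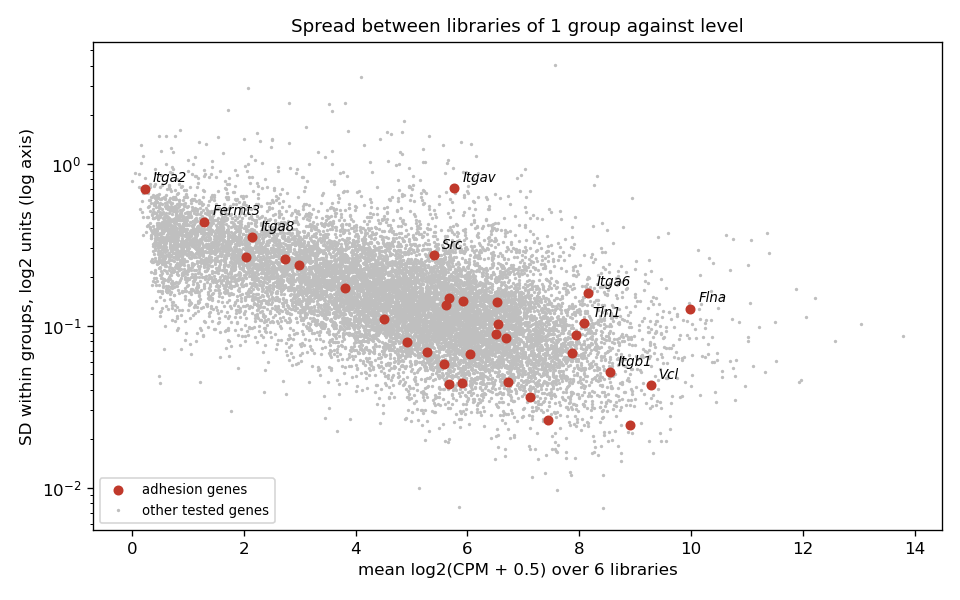
SD of log2(CPM + 0.5) within groups (log axis) against the mean level for the 34 tested adhesion genes (red) and all other tested genes (grey). Among all tested genes the spread of Itgav is at percentile 98.8, that of Src at 78.7 and that of Itga6 at 53.4. Below the median spread of all tested genes lie 24 of the 34 members.

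The median SE of a member's log2 fold change was 0.09, against 0.13 for all tested genes, and 24 of the 34 members had a spread within groups below the median of all genes. Spread in log2 units tends to fall with level, and members were not compared with other genes of like level. The part of level in these differences was thus not tested.

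The other genes of the pathway form 3 lists of 103 genes. Of 89 rows kept by the expression filter 0 passed edgeR's adjustment over all genes, and 12 had an unadjusted p under 0.05, 11 of them higher and 1 lower. Those shares are 12.4% and 1.12% of the rows tested, with 2.30% higher and 1.69% lower among all tested genes. PDTLN1 library 2 was the highest of the 6 for 9 of the 11. Without it 8 of 93 rows were higher and 0 lower at an unadjusted edgeR p under 0.05, with 1.67% of all genes higher. The median log2 fold change of the 89 was 0.03, with 59 above 0. These lists were drawn up with earlier results of the same libraries known, so the counts are a description.

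Of the 12 integrin chains not among the members, which serve mostly blood cells, 4 passed the expression filter and were tested. Itga2b, the platelet alpha chain, was at 3.77, 3.48 and 4.27 CPM in PDTLN1 libraries and 2.40, 2.44 and 1.61 CPM in control libraries. The groups did not overlap, but the log2 fold change of 0.84 (interval 0.28 to 1.39) had an edgeR unadjusted p of 0.00769 and an adjusted p of 0.989. Itga10, a collagen receptor chain of cartilage, averaged 1.83 CPM in PDTLN1 libraries and 0.819 CPM in control libraries, and overlapped. Itga4, the alpha chain of leukocytes and mesoderm, averaged 0.578 FPKM in PDTLN1 libraries and 0.577 FPKM in control libraries. Itgb2, the leukocyte beta chain, had 13 counts in all.

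Of 64 tested rows of other talin-binding and adhesion components, 7 were higher and 1 lower at an unadjusted p under 0.05. Flnc, a filamin gene, had a log2 fold change of 0.34, Lpp, a relative of zyxin, one of 0.24, and Rock1 and Rock2, genes of kinases that drive actomyosin contraction, ones of 0.24 and 0.23. These 4 did not overlap between the groups. Flnc, the largest of them, was at 184, 230 and 178 CPM in PDTLN1 libraries and 154, 158 and 157 CPM in control libraries. Rapgef2, an exchange factor for Rap1, and Capns1, the small subunit of the calpains that cleave talin, had log2 fold changes of 0.22 and 0.22. Sorbs3, the vinculin-binding protein vinexin, had one of -0.63 at 1.77 CPM in PDTLN1 libraries and 2.73 CPM in control libraries. None of these genes passed, with edgeR adjusted p of 0.989. Rap1b and Csrp1, a LIM protein of actin bundles, were the most abundant of the list, and Rap1b averaged 79.5 FPKM in PDTLN1 libraries and 77.6 FPKM in control libraries, where Rap1a averaged 14.0 FPKM in PDTLN1 libraries and 13.3 FPKM in control libraries.

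Among 21 tested genes of extracellular ligands, 2 were higher and none lower at an unadjusted p under 0.05. Thbs1, the gene of thrombospondin 1, averaged 158 ± 26.3 CPM in PDTLN1 libraries and 129 ± 5.18 CPM in control libraries (SD, n = 3 each), and Fbn1, the fibrillin gene, 96.8 ± 6.70 CPM in PDTLN1 libraries and 85.2 ± 2.63 CPM in control libraries. Neither passed (edgeR adjusted p 0.989). Nid2, a basement membrane linker, was the most abundant ligand by FPKM, at 77.0 in PDTLN1 libraries and 78.1 in control libraries, followed by Ccn1, a matricellular protein gene listed as Cyr61, at 55.2 FPKM in PDTLN1 libraries and 48.4 FPKM in control libraries.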

How the data were processed

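The deposited table holds counts and FPKM for 3 PDTLN1 and 3 control libraries. Per the labels' protocols, total RNA of P19 cells went into an Illumina TruSeq RNA kit. The authors deposited counts as whole numbers per gene with no normalization, as the header names and the values show. The FPKM deposited by the authors imply 1 gene length per gene in all libraries within 0.1% for all 15678 genes with a count in every library. Bowtie 0.12.2 and the builds mm8 and mm9 are named in the submitters' processing notes, with no role. Which program counted reads, how it treated strand and multiply mapped reads, and which annotation it used is not given in the sources used here. Positions in the table equal those of GENCODE mouse release 21 (GRCm38) for 27 of the 38 members, so coordinates are given in GRCm38.

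Samples were grouped by the treatment label and columns by sample title. The titles of the PDTLN1 libraries carry the code P50, which no label explains. Counts of the 6 libraries, 10381307 to 11663081 in total, went through filterByExpr (13836 genes kept), TMM, glmQLFit with robust estimation and glmQLFTest in edgeR 4.0.16 (R 4.3.3), two-sided; the Benjamini-Hochberg adjustment covered all tested genes, at a threshold of 0.05. SE is the log2 fold change over the square root of F, and 95% intervals use the test's degrees of freedom. The spread within groups is the pooled SD of log2(CPM + 0.5). DESeq2 1.42.0 was an alternative, and the steps were tested on simulated data.

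The members and lists were chosen with earlier results of these data known. Values in every library are given for talins, vinculin, kindlins and integrin chains that could be tested, for members at an unadjusted p under 0.05, and for the 8 with the largest fold change and the 5 with the widest spread; Ptk2 and the actin-linked genes with library values were added after their values were seen. From the other lists, genes at an unadjusted p under 0.05 and the 2 most abundant by FPKM are named, and some genes of these lists are not reported here. Tgfb1i1 and Itgam had 2 rows each, and both were used. Alternatives were other scalings and filters, DESeq2, the replicate number as a block and leaving out libraries. The groups share replicate numbers that no label explains.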

Additional observations from a re-analysis of the deposited data

How the results depend on the processing

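Of 34 tested members 0 passed under each of the 13 alternatives, and the lowest adjusted p was 0.149, for Itgb8 with both libraries numbered 1 left out (log2 fold change 0.74), a comparison of 2 against 2 libraries chosen after seeing the data. The number of all genes past the threshold, 3, became 8 with no filter, 10 with DESeq2, 1 with the replicate number as a block, 2 to 13 without 1 library and 91 with both libraries numbered 1 left out. Of the other pathway genes 0 to 1 passed without 1 library and 1 in the 2 against 2 comparison, Crk in both cases. The scaling, filter, DESeq2 and block settings reversed the sign of 0 members. Leaving out 1 library did so for 12, all with small fold changes but Itga2: the ranges were -0.025 to 0.0017 for Actn4, -0.052 to 0.088 for Flna, -0.031 to 0.017 for Ilk, -0.042 to 1.68 for Itga2, -0.064 to 0.0089 for Itga3, -0.21 to 0.017 for Itga6, -0.13 to 0.068 for Itga9, -0.029 to 0.12 for Itgb5, -0.028 to 0.073 for Lims1, -0.016 to 0.15 for Rap1a, -0.041 to 0.078 for Tln1 and -0.0017 to 0.10 for Tns3. With both libraries numbered 1 left out, Flna was at -0.074, Itga3 at 0.027 and Itgav at 0.094. The value of Itgav was -0.86 to -0.11 without 1 library, and the cause of these shifts was not tested. The deviations of same-numbered libraries from their group means correlated at -0.36, -0.14 and -0.10 across genes. These values show no positive likeness by number, and a weaker pairing beneath other differences between libraries was not tested. Genes at low CPM and Itgav had wide intervals, and those of Itga2, Itgav and Fermt3 reached beyond 1 log2 unit. Changes of that size in these genes would not be detectable here, and may not be in other members at low CPM. Itga2b, with a log2 fold change of 0.84 and an interval of 0.28 to 1.39, did not pass either (edgeR adjusted p 0.989).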

Other observations

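The split of libraries seen for Itgav was shared by few genes. By a rule chosen after its values were seen, PDTLN1 2, control 1 and control 2 above the other 3 libraries by more than 0.6 log2 units, it was met by 4 of 13836 tested genes (0.0289%). Besides Itgav, with a gap of 1.08 log2 units, they were Map3k7, Hal and Casc1, and the last 2 averaged 0.729 and 1.38 CPM. Map3k7, which encodes the kinase Tak1 of TGF-beta and inflammatory signalling, was at 67.4, 141 and 60.1 CPM in PDTLN1 libraries 1, 2 and 3 and at 118, 133 and 58.2 CPM in control libraries 1, 2 and 3. Its gap was 0.804 log2 units. It is the gene of the 3 at a level like that of Itgav.

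Crk, the adaptor that binds paxillin and p130Cas, showed another uneven pattern. It was at 95.1, 130 and 113 CPM in PDTLN1 libraries 1, 2 and 3 and at 110, 227 and 246 CPM in control libraries 1, 2 and 3, so that control library 1 lay among the PDTLN1 libraries. Its log2 fold change was -0.79 with all libraries (edgeR adjusted p 0.989), and -1.07 without control library 1 (edgeR adjusted p 0.0281). In the comparison of 2 against 2 libraries without those numbered 1, which was chosen after the data were seen, the edgeR adjusted p was 0.00210, the lowest of a range of 0.00210 to 1.00 over its alternatives.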
